A study of Mus musculus with 30 samples.

Results

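The brains of 10 untreated male mice of the genotype Avy/a, collected on day 22, were compared between 4 animals with a high level of the clock transcript Arntl and 6 with a low level, and each brain was set beside the liver and kidney of the same animal. The sides were chosen by the measured level of Arntl itself: a mouse was placed on the Arntl-high side where its mean over 3 tissues lay above the mean of the 10 mice. Of the 30 arrays of the series, 10 hold brain, 4 from Arntl-high and 6 from Arntl-low mice. Per the labels, which name mice by coat colour, the Arntl-high side holds mottled mice 1 and 2, heavily mottled mouse 1 and slightly mottled mouse 2. The Arntl-low side holds yellow mice 1 and 2, pseudoagouti mice 1 and 2, slightly mottled mouse 1 and heavily mottled mouse 2. Every mouse carries the viable yellow allele Avy of the agouti gene opposite the nonagouti allele a, in a colony kept by brother-sister mating. The time of day at which the tissues were taken is not given in the sources used here. The labels do not say which pieces of brain were taken, nor whether mice shared a litter.

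The circadian clock is a transcriptional loop that runs in nearly every cell. ARNTL (also called BMAL1) pairs with CLOCK or, in some tissues, NPAS2, binds E-box elements and activates the Per, Cry, Nr1d1, Nr1d2, Ciart and Dbp genes. PER and CRY proteins repress this pair, and NR1D1 and NR1D2 repress Arntl and Npas2, so that Arntl and its targets peak at opposite times. The suprachiasmatic nucleus of the hypothalamus sets the phase of the whole animal, while brain regions outside it and the peripheral organs hold clocks of their own. In a piece of brain many regions are averaged.

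On the scale log2(signal + 16), used for all values below that are called log2, the mean of Arntl (probe set 1425099_a_at) over 3 tissues was 9.42 in the lowest Arntl-high mouse, slightly mottled mouse 2, and 8.54 in the highest Arntl-low mouse, heavily mottled mouse 2. The dividing value was 8.85. These are the values that chose the sides and no test of Arntl is given. The tests below set other transcripts against sides drawn from Arntl, not against a treatment. The mean of liver and kidney alone placed 10 of 10 mice on the same side. Brain alone placed 9 of 10 on the same side, with pseudoagouti mouse 1 at 9.70 against the brain mean of 9.63.

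Some brain arrays stood apart, and the 3 that did so by their highest signal all lay on the Arntl-low side. Yellow mouse 1, slightly mottled mouse 1 and pseudoagouti mouse 1 had a highest probe set signal of 34204 to 37230, against 16761 to 24161 on the 7 other brain arrays. They also lay at -53.1 to -40.3 on the first principal component of brain, which held 31.5% of its variance, against 4.97 to 30.1 for the others. Results are therefore given for 10 mice and for the 7 mice without these 3, 4 Arntl-high and 3 Arntl-low. Among mice numbered 1, the 3 Arntl-low brains are these 3 arrays. Among mice numbered 2 there is none of them. Mottled mouse 1 and heavily mottled mouse 1, both Arntl-high, had median brain signals of 196.7 and 205.4, against 138.2 to 154.8 on the other 8 arrays.

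Markers showed neural tissue on every brain array, but not the same makeup. The summed signal of 8 of 8 neuron markers was 52238 to 60634 in Arntl-high and 49421 to 78421 in Arntl-low brains, while 4 liver markers summed to 179 to 276 in Arntl-high and 107 to 471 in Arntl-low brains. Cerebellum markers summed to 35839.9 in pseudoagouti mouse 1 and to 984 to 2075 in the 9 other brains. Pcp2, the Purkinje cell protein, had a signal of 12110.5 in that mouse and 18.1 to 154 in the others. Markers of the choroid plexus, the tissue that makes cerebrospinal fluid, summed to 1172 in mottled mouse 1, 3015 in pseudoagouti mouse 1 and 4517 in pseudoagouti mouse 2, and to 14010.4 to 33514 in the 7 other brains. The part of these differences in the results below was not tested.

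**Figure D1:**
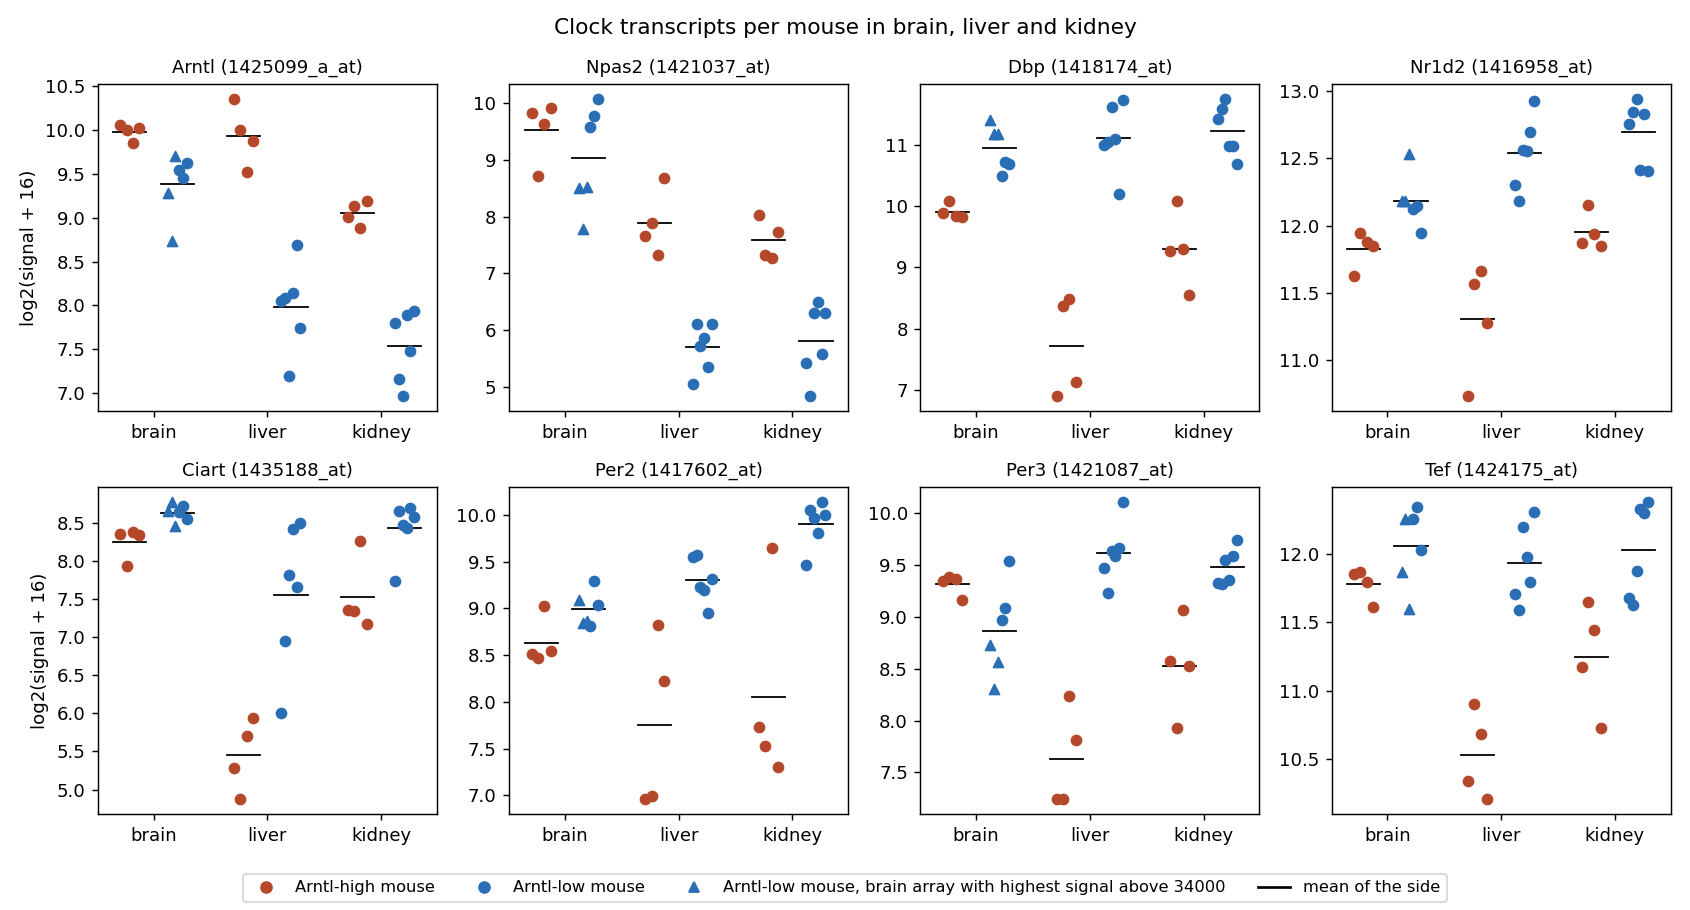
Level of 8 clock transcripts in each mouse, log2(signal + 16), in brain, liver and kidney, with Arntl-high mice left of Arntl-low mice and a bar at the mean of each side (n = 4 and 6). The side means lie closer together in brain than in liver for each of the 8 transcripts, and the brain levels of Dbp in Arntl-high mice sit below all 6 Arntl-low mice.

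In brain, Arntl had signals of 1048, 1008, 910.1 and 1028 in mottled mouse 1, heavily mottled mouse 1, slightly mottled mouse 2 and mottled mouse 2. The Arntl-low brains had 411 at the lowest, 707 at the median and 818 at the highest, so the sides did not overlap. The log2 mean was 9.98 ± 0.09 in Arntl-high brains (SD, n = 4) and 9.39 ± 0.35 in Arntl-low brains (SD, n = 6), a difference of 0.59. It was 0.44 without the 3 arrays that stood apart, 0.79 within number 1 and 0.40 within number 2. The corresponding differences were 1.96 in liver and 1.52 in kidney. On the signal + 16 scale Arntl was 1.51-fold higher in Arntl-high brains, 3.88-fold higher in Arntl-high livers and 2.87-fold higher in Arntl-high kidneys.

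The partners of ARNTL did not separate the sides in brain. Clock, its usual partner, differed by -0.03 (SE 0.16, adjusted p 0.929), with 539 to 899 in Arntl-high and 646 to 873 in Arntl-low brains. Npas2, the alternative partner, had brain signals of 889, 407, 775 and 955 in mottled mouse 1, heavily mottled mouse 1, slightly mottled mouse 2 and mottled mouse 2. The Arntl-low brains ranged from 205 to 1068, with a median of 550.0, and the sides overlapped. Its difference was 0.48 (SE 0.41, adjusted p 0.534) over 10 mice and -0.29 without the 3 arrays that stood apart, so its direction in brain rests on those arrays. In liver the same probe set was 2.19 higher on the Arntl-high side (adjusted p 0.0164), with 144 to 396 in Arntl-high and 17.3 to 53.3 in Arntl-low livers. The nuclear receptors Rora and Rorb, which activate Arntl, differed by -0.37 (adjusted p 0.611) and 0.21 (adjusted p 0.692) in brain. Without the 3 arrays these differences were 0.37 and -0.12, each with the sign turned. Arntl2, a relative of Arntl, was below the filter on low signals.

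Across all genes, the brain comparison without a covariate gave no call. With limma and Benjamini-Hochberg adjustment, 0 of 22519 tested probe sets passed an adjusted p of 0.05 (0%), and the lowest adjusted p was 0.0618. At an unadjusted p of 0.05 there were 4372 (19.4%). This count was 2252 with the ratio of the Gapdh control probe sets as a covariate. It was 1925 with coat class as a block and 5570 with the replicate number as a block. With that number as a block 72 of 22519 probe sets passed the adjusted p of 0.05, so the absence of calls depends on the model. The log2 Gapdh ratio was -0.359 to -0.288 in Arntl-high and -0.47 to -0.326 in Arntl-low brains. The Arntl-high brains lay entirely above the Arntl-low brains for 485 probe sets (2.15%) and entirely below for 703 (3.12%). Without the 3 arrays 0 passed (0%), and with 3 in place of 6 Arntl-low mice these shares were 7.26% above and 7.82% below. In liver 22 probe sets passed (0.0977%) and in kidney 1 (0.00444%), the tetraspanin Tspan4 (adjusted p 0.0495). The median difference of all tested probe sets was 0.03 in brain. Single mice moved the brain count: 154 probe sets passed without pseudoagouti mouse 2, 11 without slightly mottled mouse 2 and 4 without mottled mouse 1, both of the last Arntl-high.

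The repressors, which are targets of the ARNTL and CLOCK pair, were more often lower than higher in Arntl-high brains, and none passed the test. Of 10 genes 9 were tested, 6 lower and 3 higher. Over all tested probe sets 46.3% were lower. For 3 of the 9 the Arntl-high brains lay entirely below, Nr1d1, Nr1d2 and Ciart, and for 0 entirely above. The share below over all tested probe sets was 3.12%. Without the 3 arrays 3 lay below and 0 above, where the shares over all tested probe sets were 7.82% and 7.26%. In liver 4 of the 9 lay entirely below on the Arntl-high side, where the share over all probe sets was 0.857% (and 0.648% above). In kidney 2 lay entirely below, with 0.586% over all probe sets (and 0.44% above). Bhlhe41 was below the filter.

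Nr1d2, a nuclear receptor that represses Arntl, had signals of 3142, 3917, 3756 and 3668 in mottled mouse 1, heavily mottled mouse 1, slightly mottled mouse 2 and mottled mouse 2 (probe set 1416958_at). The Arntl-low brains had 3918 at the lowest, 4567 at the median and 5894 at the highest. The gap between the sides was narrow, since heavily mottled mouse 1 and pseudoagouti mouse 2 were almost equal. The difference was -0.36 (SE 0.12, adjusted p 0.164), and -0.24 without the 3 arrays. Liver had -1.23 (adjusted p 0.0405) and kidney -0.74 (adjusted p 0.485). A second probe set of Nr1d2, 1416959_at, which was named after its values were seen, had -0.75 (adjusted p 0.113) in brain, with 186 to 270.1 in Arntl-high and 286 to 520.4 in Arntl-low brains.

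Nr1d1, its close relative, had brain signals of 337, 348, 244 and 293 in mottled mouse 1, heavily mottled mouse 1, slightly mottled mouse 2 and mottled mouse 2. The Arntl-low brains ranged from 380.5 to 659.7 with a median of 437. No Arntl-high brain reached the lowest Arntl-low brain. The difference was -0.57 (SE 0.17, adjusted p 0.141), -0.49 without the 3 arrays, -0.48 within number 1 and -0.66 within number 2. In brain the sides of Nr1d1 were apart. In liver they overlapped through heavily mottled mouse 1 alone, at 685, with the other Arntl-high livers at 143 to 257.5. The Arntl-low livers had 376 to 893.

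Ciart, a repressor of the ARNTL and CLOCK pair, had brain signals of 310.2, 227, 317 and 307 in mottled mouse 1, heavily mottled mouse 1, slightly mottled mouse 2 and mottled mouse 2. The Arntl-low brains had 334 at the lowest, 385 at the median and 423 at the highest, above every Arntl-high brain. The difference was -0.39 (SE 0.14, adjusted p 0.184), and -0.39 without the 3 arrays. In liver it was -2.11 (adjusted p 0.165). Its promoter is shown because it held more E-boxes than any other clock gene with a window, together with Per1, whose brain level ran with that of liver and kidney across mice. Each RefSeq window (GRCm38.p6) runs from 250 bases before to 50 bases after the gene's start, and capitals mark matches to CACGTG, the E-box, which reads the same on both strands.
Ciart promoter, chr3:95882179-95882478, - strand: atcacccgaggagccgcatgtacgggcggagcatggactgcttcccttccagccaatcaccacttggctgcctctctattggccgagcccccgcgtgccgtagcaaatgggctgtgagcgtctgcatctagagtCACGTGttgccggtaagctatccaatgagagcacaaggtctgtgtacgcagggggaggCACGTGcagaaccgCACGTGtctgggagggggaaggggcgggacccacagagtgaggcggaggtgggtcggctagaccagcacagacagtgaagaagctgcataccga
Per1 promoter, chr11:69098699-69098998, + strand: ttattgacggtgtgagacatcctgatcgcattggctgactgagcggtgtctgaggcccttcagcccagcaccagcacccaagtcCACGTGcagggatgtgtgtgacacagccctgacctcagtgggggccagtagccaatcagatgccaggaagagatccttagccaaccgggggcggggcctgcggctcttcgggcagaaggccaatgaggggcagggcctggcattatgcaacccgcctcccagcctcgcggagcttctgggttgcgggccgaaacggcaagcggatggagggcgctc
The Ciart window held 3 matches, which begin 116, 58 and 44 bases before the gene's start, and the Per1 window 1, at 166 bases. Of 32 clock and rhythmic genes 25 had a window, and 5 of the 25 held CACGTG: Bhlhe41, Ciart, Cry1, Per1 and Tef. Over all 32851 windows of this length 7.15% held it. The matches are letters, not measured sites.

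Of the 3 Per genes, Per1 was lower in Arntl-high brains, while the direction of Per2 and Per3 depended on the probe set. Per1 had signals of 704, 519.8, 962 and 708 in mottled mouse 1, heavily mottled mouse 1, slightly mottled mouse 2 and mottled mouse 2, against 709 to 991 in the Arntl-low brains with a median of 910.4. Slightly mottled mouse 2 lay among the Arntl-low brains and the 3 other Arntl-high brains below them, by a single unit of signal in mottled mouse 2. The difference was -0.28 (SE 0.17, adjusted p 0.366). Per2 (1417602_at) had 348, 337, 503 and 357 in the same order of Arntl-high mice, against 434 to 613 in Arntl-low brains. Again slightly mottled mouse 2 alone overlapped, and the difference was -0.36 (SE 0.15, adjusted p 0.233). A second tested Per2 probe set, 1457350_at, went the other way, with 0.44 (adjusted p 0.233), so the direction of Per2 in brain depends on the probe set.

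Per3 (1421087_at) had signals of 636, 650.2, 644 and 556 in mottled mouse 1, heavily mottled mouse 1, slightly mottled mouse 2 and mottled mouse 2. The Arntl-low brains had 301 at the lowest, 447 at the median and 727 at the highest. The 3 arrays that stood apart held the lowest values, at 301 to 408. The difference was 0.45 (SE 0.20, adjusted p 0.253), 0.11 without those 3, 0.83 within number 1 and 0.06 within number 2. Liver had -1.98 (adjusted p 0.00700), with 135 to 286 in Arntl-high and 584 to 1091 in Arntl-low livers, and kidney had -0.95 (adjusted p 0.511). Both other tested Per3 probe sets had negative differences in brain, -0.25 and -0.34, so the direction of Per3 in brain depends on the probe set. The Per3 promoter is shown because it held 2 matches to TTATGTAA, a D-box that the output factors DBP, TEF, HLF and NFIL3 bind, in capitals below.
Per3 promoter, chr4:151044616-151044915, - strand: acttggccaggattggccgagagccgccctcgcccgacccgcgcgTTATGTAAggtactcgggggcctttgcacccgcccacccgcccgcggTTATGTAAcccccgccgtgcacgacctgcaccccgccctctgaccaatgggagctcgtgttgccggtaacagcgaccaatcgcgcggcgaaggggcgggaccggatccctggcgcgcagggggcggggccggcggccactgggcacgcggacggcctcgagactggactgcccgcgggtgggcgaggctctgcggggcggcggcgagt
The matches begin 205 and 158 bases before the gene's start. Per3 was the only one of the 25 clock genes with a window that held this motif, which was in 0.938% of all windows on either strand. The variant TTACGTAA was in 0 of the 25 and in 0.119% of all windows.

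Cry1 and Cry2, the cryptochrome repressors, differed by 0.28 (adjusted p 0.482) and -0.21 (adjusted p 0.374) in brain. Bhlhe40, which competes for E-boxes, differed by 0.09 (adjusted p 0.750). All 3 overlapped between the sides.

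The output factors carry the rhythm to downstream genes. Of the 4, Dbp, Tef, Hlf and Nfil3, 3 were lower and 1 higher in Arntl-high brains, and none passed the test. Dbp has a pair of tested probe sets that disagree in size. At 1418174_at, named after its values were seen, the Arntl-high brains had 933, 1069, 893 and 885 in mottled mouse 1, heavily mottled mouse 1, slightly mottled mouse 2 and mottled mouse 2. The Arntl-low brains had 1417 at the lowest, 1984 at the median and 2676 at the highest. The Arntl-high brains were close to each other and all below the Arntl-low brains. The 3 arrays that stood apart were at 2301 to 2676 and the other Arntl-low brains at 1417 to 1666. The log2 mean was 9.90 in Arntl-high and 10.94 in Arntl-low brains, a difference of -1.04 (SE 0.17, adjusted p 0.0669). It was -0.73 without the 3 arrays (adjusted p 0.178), -1.26 within number 1 and -0.81 within number 2. In liver it was -3.39 (adjusted p 0.00418) and in kidney -1.93 (adjusted p 0.0680).

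At the brighter probe set of Dbp, 1438211_s_at, the brains had 2445, 3379, 2759.9 and 2952 on the Arntl-high side in the same order, against 2159 to 3906 on the Arntl-low side. The sides overlapped and the difference was -0.20 (SE 0.17, adjusted p 0.535), while liver had -3.41 (adjusted p 0.00180) and kidney -1.36 (adjusted p 0.122). The suffix _s_at marks a probe set that can match more than one transcript. In liver the probe sets gave almost the same difference, and in brain they did not.

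Tef, a relative of Dbp, had 3691, 3723, 3541 and 3116 in mottled mouse 1, heavily mottled mouse 1, slightly mottled mouse 2 and mottled mouse 2 (1424175_at), against 3078 to 5205 in Arntl-low brains with a median of 4522. Pseudoagouti mouse 1 alone of the Arntl-low mice overlapped the Arntl-high brains. The difference was -0.28 (SE 0.15, adjusted p 0.320), -0.43 without the 3 arrays, and -1.40 in liver (adjusted p 0.0146). Hlf differed by -0.18 (adjusted p 0.537) in brain at its brighter probe set, counted above as lower, and by 0.45 (adjusted p 0.266) at 1434735_at, named after its values were seen, so its direction depends on the probe set. Nfil3, which represses through the same D-box, differed by 0.20 in brain (adjusted p 0.603) and by 2.06 in liver (adjusted p 0.111). Its promoter is shown as the only one of the 25 with a match to GTAGGTCA, an element bound by the ROR activators and by NR1D1 and NR1D2, here on the other strand as TGACCTAC.
Nfil3 promoter, chr13:52980990-52981289, - strand: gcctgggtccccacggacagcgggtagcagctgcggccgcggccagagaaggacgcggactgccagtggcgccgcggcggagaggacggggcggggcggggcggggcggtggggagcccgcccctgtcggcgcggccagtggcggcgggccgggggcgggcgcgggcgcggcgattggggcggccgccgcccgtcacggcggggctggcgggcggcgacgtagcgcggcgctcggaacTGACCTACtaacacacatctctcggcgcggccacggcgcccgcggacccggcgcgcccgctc
The match begins 12 bases before the gene's start. GTAGGTCA was in 0.621% of all windows, and its shorter core TAGGTCA, which lies within it, in 2.61%. Arntl itself had a window without either.

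**Figure D2:**
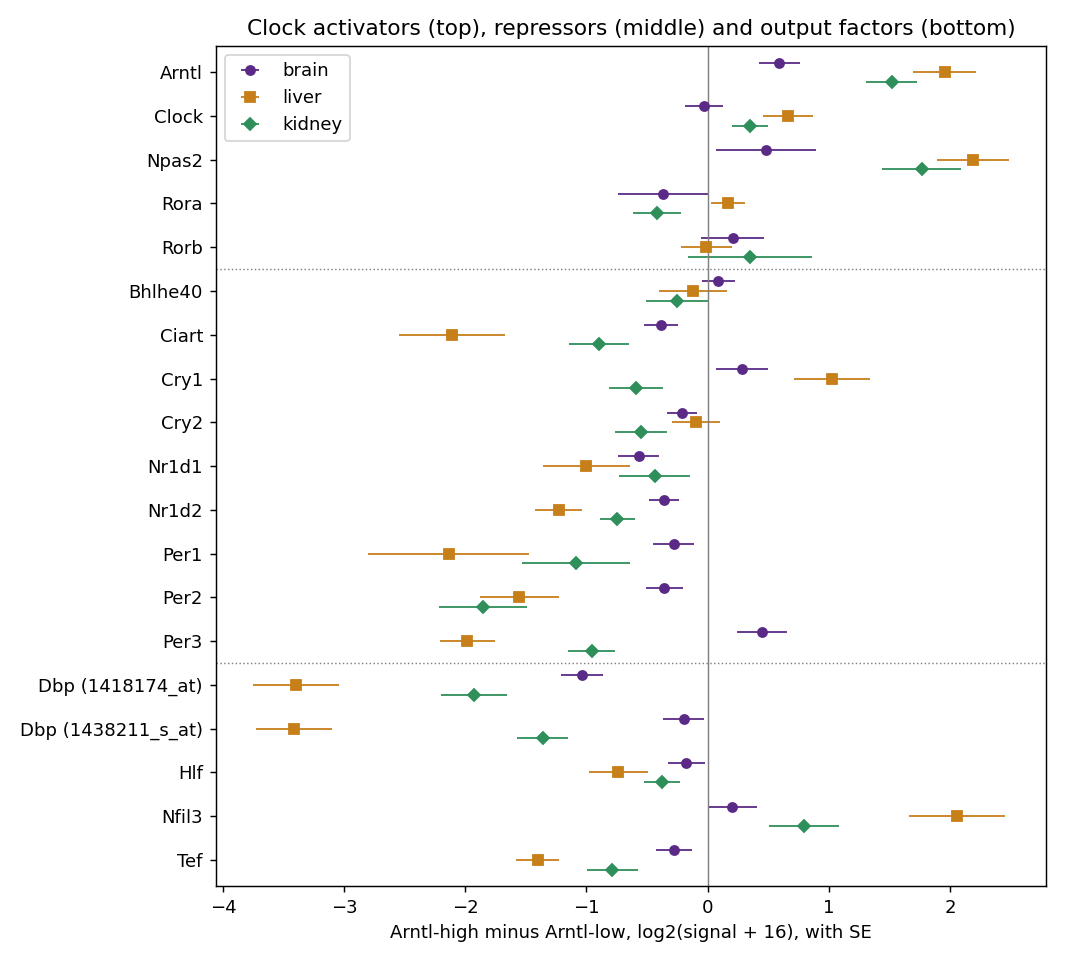
Difference between Arntl-high and Arntl-low mice in brain, liver and kidney for clock activators, repressors and output factors, in log2(signal + 16) with the SE of limma's fit; a point left of 0 is lower in Arntl-high mice. Brain points lie between -1.04 and 0.59, and liver points reach -3.41 and 2.19.

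Without Arntl, these 3 lists hold 17 tested genes, of which 11 were lower and 6 higher in Arntl-high brains. Entirely below were 3 and entirely above 0, or 4 and 0 without the 3 arrays. The shares entirely below over all tested probe sets were 3.12% and 7.82%. The median difference was -0.20 in brain, -0.74 in liver and -0.55 in kidney. As absolute sizes the medians were 0.28 in brain, 1.23 in liver and 0.745 in kidney. Over all tested probe sets the median size was largest in brain, with 0.209 in brain, 0.152 in liver and 0.145 in kidney. The size was smaller in brain than in both other tissues for 13 of the 17 genes (76.5%), against 24.7% of all tested probe sets. The SD of Arntl in brain was 0.43 times that of the liver and kidney mean, so the sides follow those tissues more. That favours larger differences of clock genes in liver and kidney, and its part was not tested.

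Whether the sides differed in another way in brain than in the other tissues was tested on the within-mouse difference, brain minus the mean of liver and kidney. Of 22519 probe sets 2 passed (0.00888%), both clock genes, and 2364 had an unadjusted p under 0.05 (10.5%). The sides were drawn from Arntl, by which liver and kidney alone placed 10 of 10 mice and brain alone 9 of 10. Genes that run with Arntl were thus favoured in advance to be further apart in liver and kidney, so these calls are limited by that choice. Dbp (1438211_s_at) had a difference of 2.19 between the sides (SE 0.18, adjusted p 0.000654), which is the excess of its brain difference over the mean of the others. Per3 (1421087_at) had 1.92 (SE 0.22, adjusted p 0.0108), and the other tested probe sets of Per3 did not pass. The other tested probe set of Dbp, 1418174_at, had 1.63 (SE 0.26, adjusted p 0.0960) and did not pass. In both that passed, the Arntl-high mice lay entirely above the Arntl-low mice. Without the 3 arrays that stood apart the values were 2.16 and 1.71 and neither passed, with adjusted p of 0.127 and 0.322. The values were 2.42 and 2.50 within number 1 and 1.96 and 1.33 within number 2. The second Per2 probe set had 1.20 (adjusted p 0.0960). Outside the clock, the smallest p were those of the thymocyte factor Tox (1.51, adjusted p 0.0960) and the peptidase Pgpep1 (1.45, adjusted p 0.0960) upwards. Downwards they were Cdk5r1, an activator of a neuronal kinase (-1.26, adjusted p 0.271), the myelin protein Mal (-1.12, adjusted p 0.271), Ndrg1 (-1.91, adjusted p 0.309), Insig2 (-0.74, adjusted p 0.309) and Ubac2 (-0.79, adjusted p 0.349).

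Of 4 tested genes for kinases and ubiquitin ligases that tune clock proteins 3 were lower in Arntl-high brains, and none passed the test. For Btrc, part of a ligase that degrades PER, the Arntl-high brains lay entirely below the others, with -0.33 (adjusted p 0.171). Another probe set of Btrc, named after its values were seen, lay entirely above, with 0.35 (adjusted p 0.144). Over all tested probe sets 3.12% lay entirely below and 2.15% entirely above. The casein kinases Csnk1d and Csnk1e, which phosphorylate PER, differed by -0.01 (adjusted p 0.981) and -0.14 (adjusted p 0.569), and the ligase gene Fbxw11 by 0.07 (adjusted p 0.782). Fbxl21 was below the filter. Of 5 transcripts that are rhythmic in many tissues 4 were lower and 1 higher. Tsc22d3, which glucocorticoids induce, differed by -0.66 (adjusted p 0.137) and Tspan4 by -0.48 (adjusted p 0.362). The deubiquitinase gene Usp2 differed by -0.10 in brain (adjusted p 0.669) and by -2.62 in liver (adjusted p 0.250). Nampt, of NAD synthesis, differed by -0.13 (adjusted p 0.584) and the cell cycle kinase Wee1 by 0.24 (adjusted p 0.407). The other tested probe set of Wee1, 1416774_at, named after its values were seen, went the other way. It had 111.4 to 211.9 in Arntl-high brains (median 176.45) and 147.8 to 245.7 in Arntl-low brains (median 190.45). The direction of Wee1 in brain thus depends on the probe set.

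A second view did not use the sides. For each probe set the brain level was correlated with the mean of liver and kidney over the 10 mice, and of these 22519 relations 0 passed an adjusted p of 0.05 in a permutation test (0%), with 2811 at an unadjusted p of 0.05 (12.5%). The median r was 0.229. Per1 had a Pearson r of 0.826 (permutation p 0.000500, adjusted p 0.174) and a Spearman rho of 0.927 (permutation p 0.000350). Its r was 0.823 without the 2 mice farthest from the median and 0.739 with the mean of each number removed (permutation p 0.00556). It was 0.898 over the 7 mice without the 3 arrays (exact p 0.00397). Slightly mottled mouse 2 had the highest Per1 signal of the Arntl-high mice in each tissue, at 962 in brain, 555 in liver and 1254 in kidney.

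Nr1d2 (1416959_at) had an r of 0.777 (permutation p 0.00892, adjusted p 0.269), a rho of 0.794 (permutation p 0.00875) and 0.883 without the 2 farthest mice. Over the 7 mice it was 0.664 (exact p 0.103). Ciart had an r of 0.705 (permutation p 0.0163, adjusted p 0.308) and a rho of 0.636 (permutation p 0.0532). Its r was 0.644 without the 2 farthest mice and 0.854 over the 7 mice (exact p 0.00595). With number means removed, Nr1d2 had 0.857 (permutation p 0.00104) and Ciart 0.695 (permutation p 0.0300). Nr1d1 had an r of 0.533 (permutation p 0.115, adjusted p 0.514), a rho of 0.467 (permutation p 0.178) and -0.07 without the 2 farthest mice, so that relation rests on those mice, while over the 7 mice without the 3 arrays it was 0.742 (exact p 0.0645). Cry1, Cry2 and Bhlhe40 had r of -0.08, 0.02 and -0.34 over the 10 mice (adjusted p 0.942, 0.990 and 0.703). Other genes of the clock lists had a large r at some probe sets only, named after their values were seen. Clock had 0.857 at 1435775_at (adjusted p 0.209) and 0.10 at 1418660_at. Csnk1e had 0.845 at 1417175_at (adjusted p 0.221) and 0.27 at the other. Tsc22d3 had 0.832, 0.831 and -0.49. Wee1 had 0.776 at 1416774_at and -0.32 at the other. Csnk1d ran from 0.06 to 0.795. Within the 6 Arntl-low mice r was 0.738 for Per1 (exact permutation p 0.0917), 0.755 for Nr1d2 at 1416959_at (exact permutation p 0.0458) and -0.280 for Ciart (exact permutation p 0.576), so the relation of Ciart did not hold there. Each number holds 5 mice, too few for a correlation within it.

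For genes whose sides were separate in liver and kidney a pooled r would restate the sides, so only the 6 Arntl-low mice were used. There Dbp (1418174_at) had an r of 0.551 (exact permutation p 0.265) and Per2 (1417602_at) -0.331 (exact permutation p 0.536), while Per3 (1421087_at) had 0.874 (exact permutation p 0.0236, not adjusted). Among these 6 brains are the 3 arrays that stood apart, which hold the lowest values of that Per3 probe set, and both other tested Per3 probe sets had r of 0.04 and -0.01. The brighter probe sets of Dbp and Nr1d2 had 0.793 (exact permutation p 0.0542) and 0.323 (exact permutation p 0.593). Tef (1424175_at) had -0.007 (exact permutation p 0.986) and Nfil3 -0.251 (exact permutation p 0.626). Clock (1418659_at) had -0.580 (exact permutation p 0.296) and Npas2 0.516 (exact permutation p 0.225). The SD over 10 mice in brain was 0.43 times that of the liver and kidney mean for Arntl, 0.42 times for Dbp (1418174_at), 0.23 times for Per1, 0.27 times for Ciart, 0.74 times for Nr1d2 (1416959_at) and 0.86 times for Cry1. Of 35 tested probe sets of clock activators, repressors and output factors 26 were under 1, and the ratio ran up to 3.33 for a probe set of Rora. Over all tested probe sets the median of this ratio was 1.21.

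**Figure D3:**
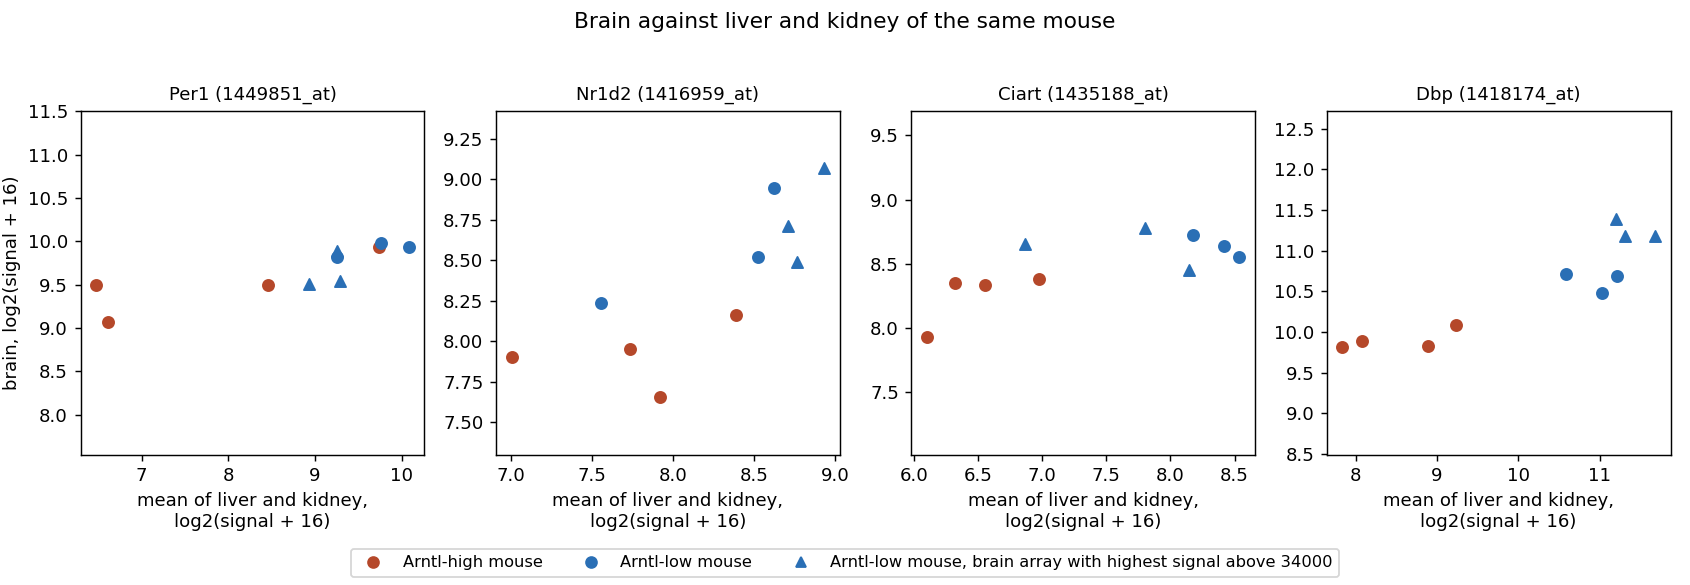
Brain level against the mean of liver and kidney of the same mouse for Per1, Nr1d2, Ciart and Dbp, in log2(signal + 16), with the same length of scale on both axes of a panel; each point is 1 of 10 mice. The points span a shorter stretch of the brain axis than of the other for Per1 and Ciart, and the sides of Dbp are separate on both axes.

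The 8 genes with the largest r were not clock genes. Chosen by this value, they had r from 0.944 to 0.961. They were Cyp4a12a, a fatty acid hydroxylase (adjusted p 0.175), the sodium pump subunit Atp1b3 (adjusted p 0.147), Aftph (adjusted p 0.0844), Fam241a (adjusted p 0.0844), the sterol synthesis enzyme Hsd17b7 (adjusted p 0.0901), the RNA-binding protein Msi2 (adjusted p 0.123), Klf9 (adjusted p 0.0844) and the mitochondrial creatine kinase Ckmt1 (adjusted p 0.147). Klf9, which glucocorticoids induce, had an r of 0.936 over the 7 mice without the 3 arrays. Cyp4a12a had 0.613 without the 2 farthest mice.

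The brain genes with the smallest p against the sides, 10 per direction, held no gene of the clock lists, but Dbp at 1418174_at, with an adjusted p of 0.0669, ranked close behind the lower group. They were chosen for their p, and their adjusted p ran from 0.0618 to 0.0988. Mgp, an inhibitor of calcification made by vascular and meningeal cells, had signals of 680, 456, 646 and 394 in mottled mouse 1, heavily mottled mouse 1, slightly mottled mouse 2 and mottled mouse 2. The Arntl-low brains had 1144 at the lowest, 1394 at the median and 1893 at the highest. The 3 arrays that stood apart, at 1267 to 1461, lay within the range of the other Arntl-low brains, 1144 to 1893. The difference was -1.39 (SE 0.18, adjusted p 0.0618), and -1.46 without the 3.

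Slc2a1, the glucose transporter of the blood-brain barrier, had 689.6, 814, 818 and 728 in the same Arntl-high mice, against 1122 to 1444 in Arntl-low brains with a median of 1208. Its difference was -0.69 (adjusted p 0.0669) and -0.63 without the 3 arrays. Slc2a4, the insulin-regulated glucose transporter, had 49.5 to 70.6 in Arntl-high and 128 to 193 in Arntl-low brains, a difference of -1.17 (adjusted p 0.0669). Both transporters were apart between the sides. The actin-binding genes Actn1 (-1.28) and Tpm1 (-1.08), the autophagy gene Map1lc3a (-1.05), the oxoprolinase gene Oplah (-1.17), the kinase gene Mapk6 (-0.73), Grina (-0.96) and Tmem222 (-0.64) completed the lower group.

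The higher group held Ppp2r5e, a regulatory subunit of protein phosphatase 2A, with 1753, 1637, 2248 and 1884 in the Arntl-high brains in the same order, against 894 to 1393 in Arntl-low brains with a median of 1051. Its difference was 0.81 (SE 0.14, adjusted p 0.0669) and 0.67 without the 3 arrays. The other members were Sugct (1.44), the transcript 4732419C18Rik (1.34), the RNA-binding Rbm45 (0.90) and Hnrnpa2b1 (0.66), the secreted factor Vwc2 (0.89), the axon guidance molecule Ntng1 (0.76), Rassf5 (0.76), Zcchc2 (0.64) and the receptor Fgfrl1 (0.61). For Sugct the signals were 53.2 to 116 in Arntl-high and 8.30 to 36.0 in Arntl-low brains. For 4732419C18Rik they were 66.1 to 94.7 in Arntl-high and 12.6 to 38.8 in Arntl-low brains. Both lie so near the offset of 16 that the sizes of their differences depend on that offset. The sides did not overlap for any of the 20, which fixes their direction when mice are left out. The sizes without the 3 arrays were 0.55 to 1.46 on the log2 scale. Ppp2r5e, Hnrnpa2b1 and Vwc2 were read by _x_at probe sets, and Rassf5, Fgfrl1, Actn1 and Tmem222 by _s_at probe sets. Such probe sets can match more than 1 transcript, so these differences may not belong to the named gene alone. In the other tissues the median differences were 0.13 in liver and 0.25 in kidney for the higher group, and -0.17 and -0.38 for the lower.

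**Figure D4:**
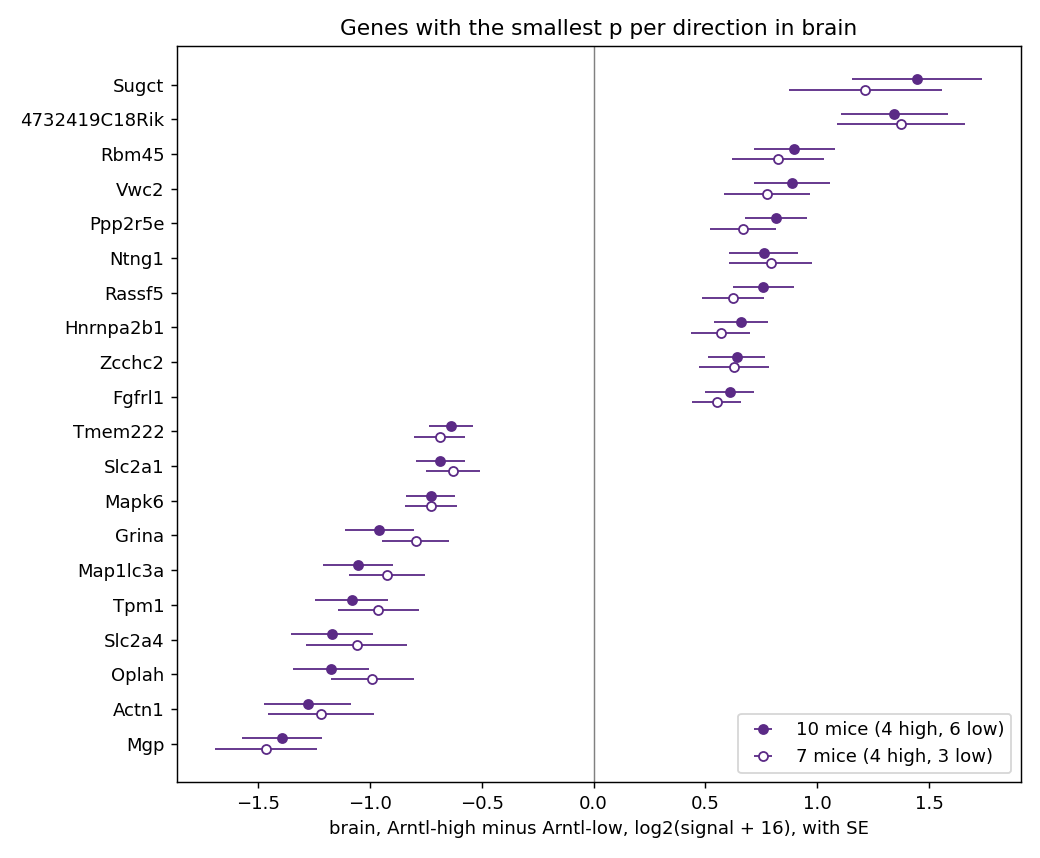
Difference between Arntl-high and Arntl-low brains for the 10 genes per direction with the smallest p, in log2(signal + 16) with the SE of limma's fit; filled points use 10 mice, open points the 7 without the 3 arrays that stood apart. Mgp lies at -1.39 for the filled and -1.46 for the open point, and Ppp2r5e at 0.81 and 0.67.

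Immediate early genes, which neurons and other cells switch on within minutes of a stimulus, were more often higher in Arntl-high brains, with none past the test. Of 12 tested genes 9 were higher, 1 lay entirely above and 0 entirely below, and the median was 0.35. Over all tested probe sets 2.15% lay entirely above. Without the 3 arrays 3 of the genes did, against 7.26% of all probe sets. Fos had 3125, 2757, 3325 and 5271 in mottled mouse 1, heavily mottled mouse 1, slightly mottled mouse 2 and mottled mouse 2, against 1252 to 2491 in Arntl-low brains. The difference was 0.95 (SE 0.22, adjusted p 0.112), 1.31 without the 3 arrays, 0.34 within number 1 and 1.57 within number 2. Egr2 had 284 to 1108 in Arntl-high and 164 to 307 in Arntl-low brains, a difference of 1.28 (adjusted p 0.112), and Btg2 one of 0.63 (adjusted p 0.194). Egr3 went the other way, at -0.61 (adjusted p 0.163).

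Genes that glucocorticoids induce were split, with 6 higher and 8 lower of 14 tested. The metallothioneins Mt2 and Mt1 had differences of -0.60 (adjusted p 0.112) and -0.59 (adjusted p 0.118), and for Mt2 the sides did not overlap, at 4008 to 5888 in Arntl-high and 6429.5 to 9472 in Arntl-low brains. Of the 14 genes Mt2 alone lay entirely below and 0 lay entirely above, against 3.12% and 2.15% of all tested probe sets. Klf9 differed by -0.55 (adjusted p 0.168). Temperature-responsive genes had 3 higher and 7 lower of 10. Their median was -0.09 over 10 mice and 0.13 without the 3 arrays, so its sign turns with those arrays. The largest in size among them were Hspa1b (0.31, adjusted p 0.498) and Hspb1 (-0.29, adjusted p 0.554).

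Of the 5 tested neuropeptides of the hypothalamus 2 were higher and 3 lower in Arntl-high brains, and none passed the test. Their median was -0.33, and 0.54 without the 3 arrays that stood apart, so its sign turns with those arrays. Oxytocin (Oxt) alone lay entirely above, against 2.15% of all tested probe sets, and 0 lay entirely below. Without the 3 arrays 3 lay entirely above and 1 below, against 7.26% and 7.82%. Oxt had 1120, 1978, 1019.9 and 988 in mottled mouse 1, heavily mottled mouse 1, slightly mottled mouse 2 and mottled mouse 2. The Arntl-low brains had 808 to 953, a difference of 0.47 (adjusted p 0.181). The appetite peptide gene Npy had -0.39 (adjusted p 0.366), and the peptide genes Hcrt and Cartpt had -0.33 and 0.16. Hcrt signals were 833 to 1087 in the 3 arrays, 166 to 234 in the other Arntl-low brains and 247 to 494 in Arntl-high brains. Among markers of the suprachiasmatic nucleus 4 of 7 with a probe set were tested, and Rgs16 (0.81, adjusted p 0.233) had the smallest p, with Vip at 0.11 (adjusted p 0.890) and Avp at -0.32 (adjusted p 0.866). The agouti gene a, which Avy can drive outside the skin, had 195 to 285 in Arntl-high and 75.3 to 430.5 in Arntl-low brains, a difference of 0.31 (adjusted p 0.703).

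No cell type marker passed the test in brain, and the medians of the oligodendrocyte, astrocyte and neuron markers moved with the 3 arrays. The 7 of 7 tested oligodendrocyte markers were lower in Arntl-high brains, with a median of -0.47 and none past the test, and their summed signal was 44631 to 58033 in Arntl-high brains, 52216 to 63456 in the 3 Arntl-low brains that did not stand apart and 86460.3 to 112820 in the 3 that did. Without those 3 the median was -0.29, and 3 of the 7 markers lay entirely below, against 7.82% of all tested probe sets. Mobp had -0.73 (adjusted p 0.169) and Mag -0.69 (adjusted p 0.145). Among 7 astrocyte markers the sides did not overlap for Gfap, the intermediate filament of astrocytes, at 959.6 to 1598 in Arntl-high and 1796 to 5053 in Arntl-low brains (-1.24, adjusted p 0.112), nor for Aldh1l1 (-0.68, adjusted p 0.0811). The differences of these genes were -1.16 and -0.61 without the 3 arrays. Over all tested probe sets 3.12% lay entirely below in Arntl-high brains, or 7.82% without the 3 arrays. The other 5 astrocyte markers had -0.52 to 0.23.

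Of the neuron markers 7 of 8 were lower, with a median of -0.22 over 10 mice and 0.02 without the 3 arrays. Slc17a7, the vesicular glutamate transporter of cortex, had -1.15 (adjusted p 0.153) and Nrgn, a postsynaptic protein of forebrain neurons, had -0.87 (adjusted p 0.113), with 2468 to 5919.6 in Arntl-high and 6287 to 10479 in Arntl-low brains. Of the 4 tested cortex and hippocampus markers 2 were higher, Neurod6 (0.42) and Tbr1 (0.03), and 2 lower, Nrgn and Camk2a (-0.95). Their summed signals were 4345 to 11975 in Arntl-high and 10380.3 to 17914 in Arntl-low brains. All 6 tested choroid plexus markers were lower, with a median of -0.37 and none past the test, and Ttr, the main protein that the plexus secretes, ranged from 373 to 15586 in Arntl-high and from 2175 to 31779 in Arntl-low brains (-0.99, adjusted p 0.627). Microglia markers had 3 higher and 4 lower of 7. On whole pieces of brain, fewer cells of a type and less RNA per cell cannot be told apart.

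**Figure D5:**
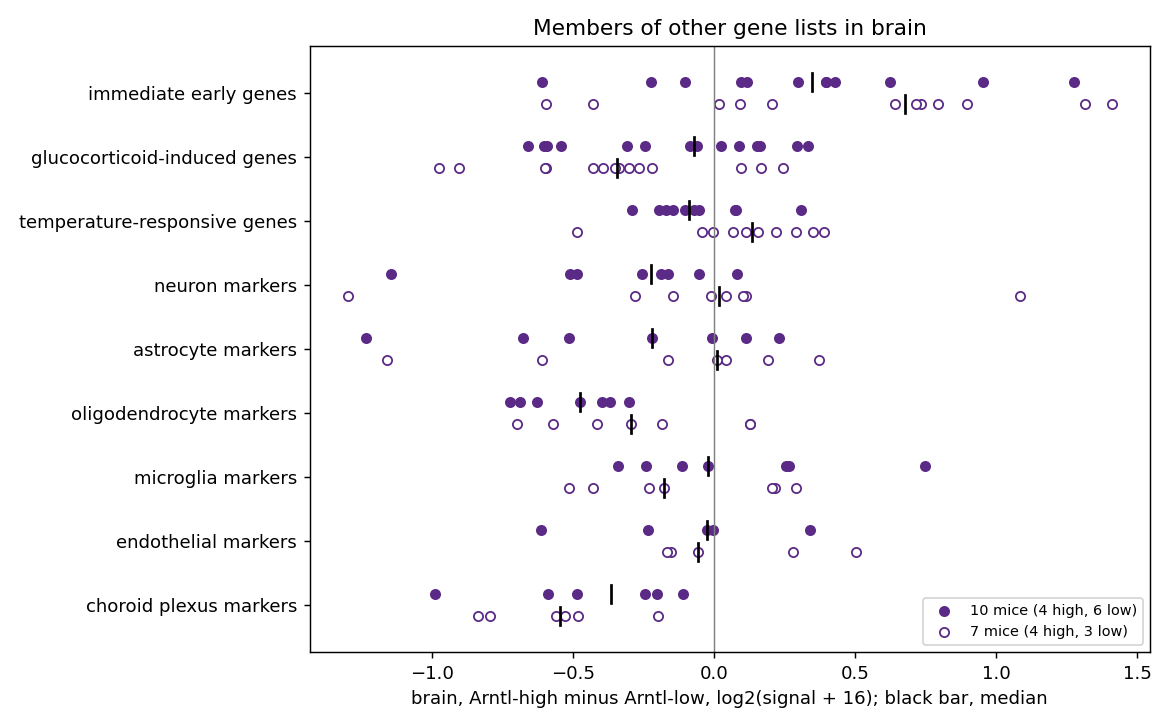
Difference between Arntl-high and Arntl-low brains for members of 9 other lists, in log2(signal + 16); each point is a gene, filled for 10 mice and open for the 7 without the 3 arrays that stood apart, with a black bar at the median. The median of the neuron markers lies at -0.22 for filled and 0.02 for open points, and that of the oligodendrocyte markers at -0.47 and -0.29.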

How the data were processed

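Total RNA of liver, kidney and brain of 10 mice was measured on 30 Affymetrix Mouse Genome 430 2.0 arrays, 1 per tissue and mouse. The authors deposited a linear signal intensity for each probe set from MAS5, per the submitters' processing notes; its version is not given in the sources used here. The trimmed mean was 500 on each array (2% trimmed at each end). Detection calls were not used here, so no limit per probe set is given, and the number of arrays limits the precision.

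Values were used as log2(signal + 16). The 64 controls among 45101 probe sets were dropped, and 22519 (12159 genes) were tested, those whose highest tissue mean reached 242, the median. The platform annotation gave 34945 probe sets 1 symbol, 932 several and 9160 none. Sides were compared with limma 3.58.1 in R 4.3.3 (lmFit, eBayes with trend, Benjamini-Hochberg, threshold 0.05), two-sided, with 4 Arntl-high and 6 Arntl-low mice and no covariate. The tissue by side interaction was the same fit on brain minus the mean of liver and kidney. Correlations used 100000 permutations (Python 3.11.15, numba 0.67.0), two-sided. The labels do not tie mice to litters, so p-values measure the spread between these mice. The members and lists were chosen with earlier results of these data known.

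Named genes were all members of 5 clock lists, the 10 genes per direction with the smallest p in brain and 5 in the interaction, the 8 with the largest r, and up to 4 per other list. In lists the brightest probe set of a gene on average was taken, and among genes named by p or r the one with the smallest p or largest r. Second probe sets, Pmch and the cerebellum markers were named after their values were seen. Numbers in the labels were not used to pair mice. Deviations of brains from the mean of their side were correlated between the sides. The average was 0.07 for the same number (-0.06 to 0.27, 12 pairs) and -0.07 for the other number (-0.27 to 0.16, 12 pairs). Deviations cancel within a side, so these averages mirror each other and do not show that number had no part. No 2 arrays correlated above 0.984. Promoters came from RefSeq windows on GRCm38.p6. Alternatives were offsets of 1 and 64, other filters, quantile normalisation, blocks, covariates, each number alone and each mouse left out; leaving out the 3 arrays that stood apart, or both brains with the highest median, was added later with the values in view. The brain fit, the interaction fit and the correlation were checked on simulated data, and the liver and kidney fits were not. Of 200 probe sets changed by 1 on the log2 scale, 65% were called in the brain fit and 47.5% in the interaction fit.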

Additional observations from a re-analysis of the deposited data

Results flagged for a closer look

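For the named genes 148 sets of 4 or 6 mice were examined for 1 mouse far from the rest of its side (Dixon's test at the 95% level), and 10 had one. Chance gives about 1 in 20. Values are log2(signal + 16). In Arntl-high brains the repressor Ciart was lowest in heavily mottled mouse 1, at 7.93, against 8.34 to 8.38 in the 3 other Arntl-high brains. Per2 (1417602_at) was highest in slightly mottled mouse 2, at 9.02, against 8.47 to 8.54 in the 3 other Arntl-high brains. Per3 was lowest in mottled mouse 2, at 9.16, against 9.35 to 9.38 in the 3 other Arntl-high brains. The transcript 4732419C18Rik was lowest in slightly mottled mouse 2, at 6.36, against 6.72 to 6.79 in the 3 other Arntl-high brains. Actn1, which cross-links actin, was highest in mottled mouse 1, at 8.63, against 7.70 to 7.83 in the 3 other Arntl-high brains. In liver Bhlhe40 was lowest in slightly mottled mouse 2, at 9.94, against 10.98 to 11.14 in the 3 other Arntl-high livers. In kidney Rorb was lowest in slightly mottled mouse 2, at 4.57, against 6.68 to 6.93 in the 3 other Arntl-high kidneys. Dbp (1438211_s_at) was highest in mottled mouse 1, at 11.20, against 10.60 to 10.66 in the 3 other Arntl-high kidneys. Ciart was highest in slightly mottled mouse 2, at 8.26, against 7.17 to 7.35 in the 3 other Arntl-high kidneys. On the Arntl-low side Ciart was lowest in yellow mouse 1, at 7.73, against 8.42 to 8.69 in the 5 other Arntl-low kidneys. Slightly mottled mouse 2 was the distant mouse in 5 of the 10.

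Dbp (1438211_s_at) and Per3 (1421087_at) differed between tissues in how far the sides were apart, by the test on brain minus the mean of liver and kidney, with 2.19 and 1.92. The adjusted p over the alternatives ran from 0.000150 to 0.490 for Dbp and from 0.00343 to 0.490 for Per3. The sides follow Arntl of liver and kidney more than that of brain, which favours such a difference in advance.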

How the results depend on the processing

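Offsets, filters, covariates, blocks and single mice were changed one at a time. In brain 0 probe sets passed as reported and 2 with no filter, 2 after quantile normalisation, 1 without _s_at and _x_at probe sets, 5 with the highest signal as a covariate and 1385 within number 1, where the Arntl-low brains are the 3 arrays that stood apart. Leaving out 1 mouse gave 0 to 154, and the other brain alternatives, apart from the replicate block below, 0. For brain minus the mean of liver and kidney 2 passed as reported. The count was 1 with no filter, without _s_at and _x_at probe sets, or with the highest signal or Gapdh as a covariate. It was 0 within either number, with coat class as a block, without the 3 arrays, and without mottled mouse 1 and heavily mottled mouse 1 together. Leaving out 1 mouse gave 1 to 12, with 12 without slightly mottled mouse 2 and 1 without mottled mouse 1. Liver had 22 as reported, 13 with no filter, and 3 to 44 without 1 mouse, lowest without mottled mouse 2 and highest without slightly mottled mouse 2. Kidney had 1 as reported, 0 with no filter or an offset of 64, and 0 to 2 without 1 mouse. Correlations gave 0 under every alternative. The causes were not tested. The adjusted p of Dbp (1418174_at) in brain ran from 0.0171 to 0.565 over its alternatives and that of Mgp from 0.0171 to 0.530. Of the named genes' values under alternatives, 5498 stayed on the same side of the threshold, 85 came to pass it and 14 no longer passed, and 0 calls turned sign. The median difference of all probe sets in brain, 0.03 as reported, was 0.13 with no filter and -0.01 after quantile normalisation.

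The replicate numbers of the labels were not used to pair the mice, but arrays differed with them. The first principal component of liver, which held 26.1% of its variance, lay at -49.6 to -13.4 in mice numbered 1. In mice numbered 2 it lay at 16.5 to 40.5. With the number as a replicate block 72 probe sets passed in brain, 2 in brain minus the mean of the others, 37 in liver and 4 in kidney. The number of mice and the signal over background, for which no detection calls were used, limit what could be measured, and a high adjusted p does not show that the sides were alike.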

Other observations

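The brain pieces also differed in markers of other regions, over mice of both sides. Summed striatum markers, genes of the dopamine-receiving neurons, were 8696 to 19048 in Arntl-high and 5932 to 29288 in Arntl-low brains, with the lowest sum in slightly mottled mouse 1 and the highest in pseudoagouti mouse 2. Summed thalamus and midbrain markers were 677 to 4258 in Arntl-high and 557 to 4789 in Arntl-low brains, and stood at 4258 in heavily mottled mouse 1 and 4789 in slightly mottled mouse 1. Pituitary hormone genes summed to 169.9 to 357 in Arntl-high and 88.2 to 2282 in Arntl-low brains, and reached 2282 in pseudoagouti mouse 1 and 1352 in yellow mouse 1, both among the 3 arrays that stood apart. Endothelial markers were closer, at 3123 to 3809 in Arntl-high and 2894 to 4131 in Arntl-low brains. Pmch, the melanin-concentrating hormone gene of the lateral hypothalamus, differed by -0.41 between the sides over 10 mice (adjusted p 0.898) and by 2.45 without the 3 arrays (adjusted p 0.281). Pmch was named after its values were seen.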
